A study of Mus musculus with 48 samples.

Results

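The transcripts of 15 single mouse cells with Cer1 at 10 FPKM or more (Cer1-high cells) were compared with those of 31 cells with Cer1 below 1 FPKM (Cer1-low cells), out of 48 cells in all. FPKM corrects sequenced fragments for the length of the transcript and for the size of the library. Both sides were chosen by the measured level of Cer1, so its own values describe the selection and support nothing. All 48 cells came from embryonic stem cells of strain 129P2/OlaHsd with a doxycycline-inducible Mesp1, whose bHLH protein acts in the first mesoderm of heart and vessels. The stem cells were grown as embryoid bodies, which are aggregates that differentiate in suspension. Both sides received the same pulse of doxycycline, at 500 ng/ml, starting on day 2.25 and ending on day 3.25, and were harvested on day 4, sorted as negative for propidium iodide (a stain of dead cells) and captured singly on a Fluidigm C1 device. No uninduced cells were analysed here, and the 1 value for Mesp1 in each cell does not separate the inducible copy from the endogenous gene. The labels give 1 group and name no separate cultures, so cells are not replicates, and every difference below is a description of these cells without a p-value.

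Cer1 encodes Cerberus-like, a secreted protein that binds and blocks NODAL and BMP ligands. In the mouse embryo it is transcribed in the anterior visceral endoderm, in definitive endoderm leaving the anterior streak and in anterior mesendoderm, next to other secreted antagonists that shield anterior tissue from posterior signals. Cer1 lies on chromosome 4 from 82881751 to 82885148, on the minus strand (build GRCm38, GENCODE M21). The 250 bases before its RefSeq start, chr4:82885152-82885401 of GRCm38.p6 on the minus strand, are shown because all comparisons below rest on transcription of this gene. Capitals mark matches on either strand to CACCTG (an E-box, a hexamer class bound by basic helix-loop-helix factors and by SNAI1) and to CAGAC (a SMAD box). GGATTA (an OTX and GSC homeodomain site) and AATNNACA (a FOXH1 core) had no match in these letters.
Cer1: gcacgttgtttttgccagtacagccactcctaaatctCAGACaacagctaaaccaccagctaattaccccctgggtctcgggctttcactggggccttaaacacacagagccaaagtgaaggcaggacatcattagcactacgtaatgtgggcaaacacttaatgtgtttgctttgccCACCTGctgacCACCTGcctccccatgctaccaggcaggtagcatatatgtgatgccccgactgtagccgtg
The 2 E-box matches lie 72 to 67 and 61 to 56 bases before the start, and the SMAD box lies 213 to 209 bases before it. Of 27025 RefSeq promoters of the same length, 17.1% held CACCTG, 42.1% held CAGAC, 6.38% held GGATTA and 11.1% held AATNNACA. The same windows of Trh, Dkk1 and Shisa2, which are described below as higher in Cer1-high cells, held no E-box, homeodomain site or FOXH1 core of these letters, and the SMAD box had 1 match in Shisa2. A match is a run of letters and not a measured binding site.

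Cer1 itself ranged from 13.6 to 1435 FPKM in the Cer1-high cells, with a median of 211 FPKM. In the Cer1-low cells its highest value was 0.858 FPKM, and 20 of 31 cells listed it at 0. The lowest Cer1-high cell had 13.6 FPKM and the next had 15.9 FPKM, and the 2 cells between the limits, which were left out, had 3.34 and 2.85 FPKM. The sides had similar numbers of detected genes, with medians of 6204 in Cer1-high cells and 6219 in Cer1-low cells (detected means 1 FPKM or more). Summed FPKM without short RNAs had a median of 563499 in Cer1-high cells and 544888 in Cer1-low cells. Short RNAs took a median of 16.4% of the summed FPKM in Cer1-high cells and 9.33% in Cer1-low cells. They took over 50% in 3 Cer1-high and 7 Cer1-low cells. The number in each cell's title also differed, with a median of 62 in Cer1-high cells and 38 in Cer1-low cells. Numbers up to 48 held 6 Cer1-high and 18 Cer1-low cells, and higher numbers held 9 Cer1-high and 13 Cer1-low cells. The table keeps no read counts, so depth per cell is unknown and a value of 0 is reported only as listed. The most alike cells correlated at 0.69 (Pearson's r over the 6235 genes described below, log2 scale), so none was deposited more than once. Doublets, had any been captured, would not be seen in these values.

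Cer1-high cells had higher levels of secreted antagonists, mainly of WNT signals, of the anterior transcription factor gene Otx2 and of a set of epithelial and endodermal genes. The 8 Cer1-high cells that detected the forkhead gene Foxa2 detected more members of the epithelial and definitive endoderm lists than the other 7. Cer1-high cells had lower levels of Pmp22, Hand1, Snai1 and early hemato-endothelial genes, while Mesp1 was at similar levels on both sides. The measure was the mean log2(FPKM + 1) of Cer1-high cells minus that of Cer1-low cells, which understates the change of low genes. Of 6235 genes measured, 3508 (56.3%) had a difference above 0 and 2727 (43.7%) below 0. By size, 24 (0.385%) were higher by 2 or more in Cer1-high cells and 9 (0.144%) were lower by 2 or more. At a difference of 1, 323 genes (5.18%) were higher and 231 (3.7%) lower. The median difference over all 6235 genes was 0.07, with a 5th percentile of -0.90 and a 95th percentile of 1.01. Leaving out the 7 cells with few detected genes (14 Cer1-high and 25 Cer1-low cells stayed) gave 18 higher and 16 lower genes. All 7 had label numbers of 84 or more, so leaving them out and splitting by label number are not separate checks. Among label numbers up to 48 alone, 74 genes were higher and 58 lower by 2, and among higher numbers 131 were higher and 37 lower.

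The measured secreted antagonists other than Cer1 were higher as a group. All 8 measured members of a list of 14 had a difference above 0, against 56.3% of all genes. Of these, 3 were higher by 2 or more and 7 by 1 or more. Their median was 1.81, beside 0.07 over all genes. The level filter took both sides together, so a gene could enter through 1 side. Shisa2 did so, with a mean of 17.8 FPKM in Cer1-high and 2.17 FPKM in Cer1-low cells. The count above 0 can thus partly reflect the filter. Sfrp1, a secreted frizzled-related WNT antagonist (chromosome 8, 23411502 to 23449632, plus strand), was detected in all 15 Cer1-high cells, with 3.23, 38.5 and 147 FPKM as lowest, median and highest value. It was detected in 13 of 31 Cer1-low cells (41.9%, exact Clopper-Pearson 95% interval 24.5% to 60.9%), with 0, 0.088 and 87.6 FPKM. Its mean was 5.04 ± 1.63 in Cer1-high cells and 1.74 ± 2.14 in Cer1-low cells (SD over cells, log2 scale), a difference of 3.30. The sides overlapped, and 1 Cer1-low cell exceeded the Cer1-high median. These intervals and SDs cover counting and the spread between cells of 1 group, not a spread between cultures.

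Dkk1, which blocks the WNT co-receptors LRP5 and LRP6, was detected in 12 of 15 Cer1-high cells and in 10 of 31 Cer1-low cells. Its lowest, median and highest values were 0, 16.4 and 110 FPKM in Cer1-high cells, against 0, 0 and 158 FPKM in Cer1-low cells, a difference of 2.40. The highest Dkk1 cell was thus Cer1-low, and 6 Cer1-low cells exceeded the Cer1-high median. Shisa2, which retains WNT and FGF receptors in the endoplasmic reticulum, was detected in 11 Cer1-high and 7 Cer1-low cells, with a highest value of 74.9 FPKM in Cer1-high and 31.8 FPKM in Cer1-low cells and a difference of 2.22. The antagonists Sfrp2 (difference 1.89), Frzb (1.72), Chrd (1.12) and Fst (1.11) followed, and Lefty2, besides Cer1 the only NODAL antagonist past the level filter, had 0.61, with detection in 3 of 15 Cer1-high and 6 of 31 Cer1-low cells. Chrd, which binds BMP ligands, was detected in 6 Cer1-high and 3 Cer1-low cells, and Nog, another BMP antagonist below the level filter, in 5 Cer1-high cells and 1 Cer1-low cell. Of 7 antagonists counted per cell (Dkk1, Sfrp1, Sfrp2, Frzb, Shisa2, Chrd and Fst), Cer1-high cells detected a median of 5 and Cer1-low cells a median of 3. At least 4 of the 7 were detected in 14 of 15 Cer1-high cells and in 7 of 31 Cer1-low cells. This set of 7 was chosen after the values had been seen.

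**Figure D1:**
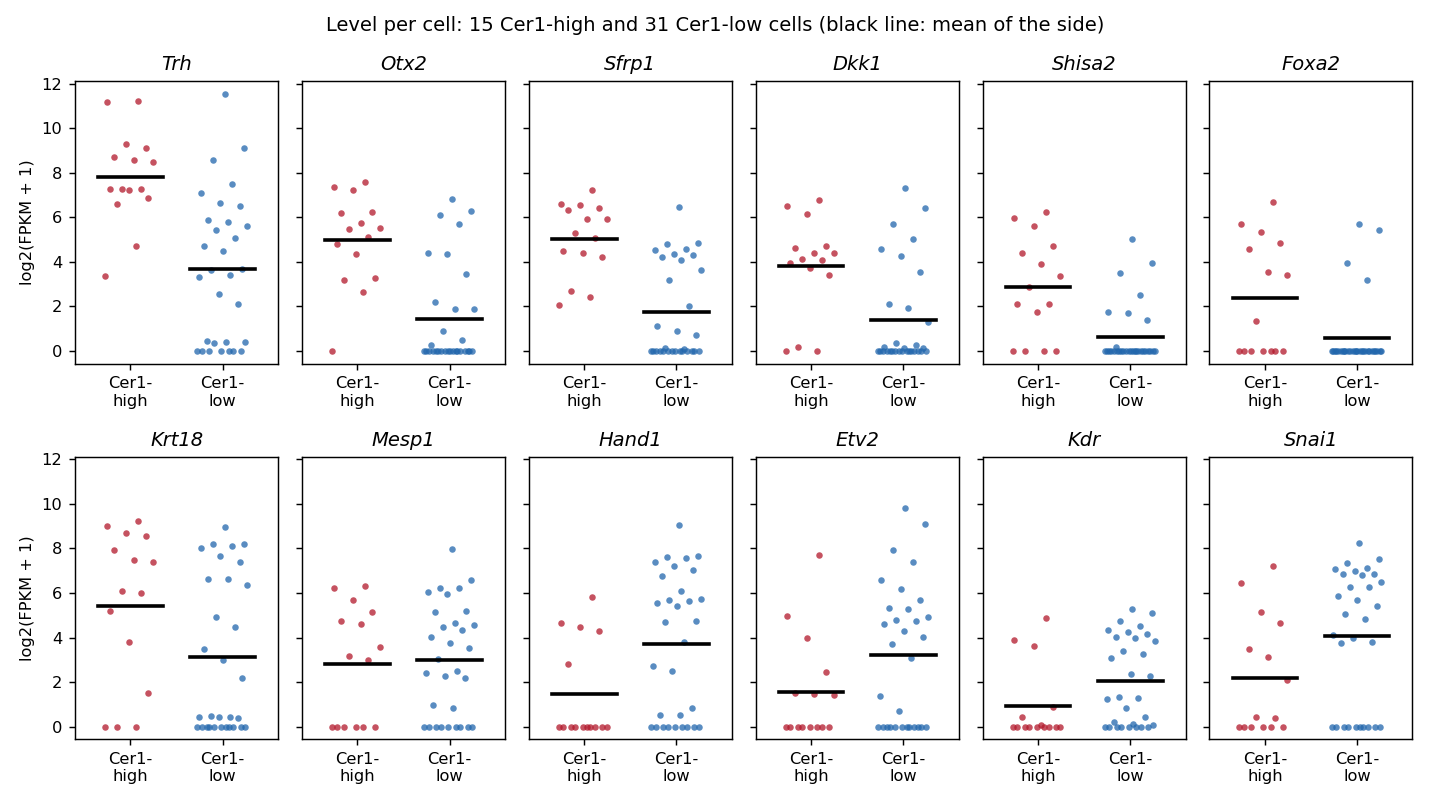
Level of 12 genes in each cell on a log2(FPKM + 1) scale, with Cer1-high cells (15, red) left and Cer1-low cells (31, blue) right in each panel; each point is 1 cell and the black line is the mean of the side. Sfrp1 and Trh were detected in all 15 Cer1-high cells, Mesp1 spread alike on both sides, and Hand1 was detected in 5 Cer1-high and 19 Cer1-low cells.

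Otx2, a homeobox factor needed for anterior mesendoderm and head development (chromosome 14, 48657677 to 48673819, minus strand), was detected in 14 of 15 Cer1-high cells (93.3%, interval 68.1% to 99.8%). It was detected in 10 of 31 Cer1-low cells (32.3%, interval 16.7% to 51.4%). Its lowest, median and highest values were 0, 43.3 and 191 FPKM in Cer1-high cells, against 0, 0 and 114 FPKM in Cer1-low cells, a difference of 3.54. Of all Cer1-high and Cer1-low combinations of 1 cell each, the Cer1-high cell had the higher Otx2 in 84.7%. Ties, where both cells were at 0, were split evenly between the sides in this share. The difference was 3.82 among label numbers up to 48 and 3.64 among higher numbers. Otx2, Trh and Sfrp1 were detected together in 14 of 15 Cer1-high cells and in 4 of 31 Cer1-low cells. With Dkk1 added, 11 Cer1-high cells and 1 Cer1-low cell held all 4, a combination chosen after the values had been seen.

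In the list of anterior mesendoderm genes, all 6 measured members of 15 were above 0, against 56.3% of all genes, with a median of 1.45. Dkk1 and Chrd are also on the antagonist list, Foxa2 and Hhex on the definitive endoderm list and Otx2 on the neurectoderm list. Foxa2, a forkhead factor of node, axial mesendoderm and endoderm, was detected in 8 Cer1-high and 4 Cer1-low cells, a difference of 1.77. Its highest value was 104 FPKM in Cer1-high and 50.5 FPKM in Cer1-low cells. It passed the filter of at least 5 cells only with Cer1-high cells counted, so its direction is not separate from its entry. Lhx1, a LIM homeobox factor of anterior mesendoderm, had 0.84 and Hhex, a homeobox factor of anterior endoderm, 0.70. Gsc, the goosecoid gene of the anterior streak, did not pass the level filter and was detected in 5 Cer1-high and 5 Cer1-low cells. Shh, Noto and Foxd3, also below the filter, were detected in 3, 2 and 2 Cer1-high cells, against 0, 1 and 0 Cer1-low cells. A count of 0 of 31 cells allows a share of up to 9.68% by the limit of 3 counts, which is another measure than the exact intervals.

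Trh, the precursor of thyrotropin-releasing hormone and a marker of early definitive endoderm (chromosome 6, 92242061 to 92244650, minus strand), had the largest difference of the 6235 genes, 4.12. It was detected in all 15 Cer1-high cells, at 9.36, 155 and 2407 FPKM as lowest, median and highest value. In Cer1-low cells it was detected in 20 of 31, at 0, 11.5 and 2985 FPKM. The highest Trh value thus stood in a Cer1-low cell, and 4 Cer1-low cells exceeded the Cer1-high median. The difference of Trh was 2.47 among label numbers up to 48 and 6.33 among higher numbers. In the list of definitive endoderm markers, 8 of 9 measured members of 18 were above 0, 7 by 1 or more, with a median of 1.43. Of all genes, 56.3% were above 0 and 5.18% higher by 1 or more. Sox17, a defining endoderm factor, was detected in 1 Cer1-high cell at 6.94 FPKM and in 0 Cer1-low cells, and Foxa1 did not reach 1 FPKM in any cell of either side. Several listed members (Cldn6, Epcam, Cdh1, Krt8 and Krt18) are epithelial genes that other cells also use. They are counted again in the epithelial list below, so the 2 lists are not separate results.

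The epithelial list had 6 measured members of 15, of which 5 were higher by 1 or more, against 5.18% of all genes. The list median was 1.40. Krt18, a keratin of simple epithelia, was detected in 12 Cer1-high and 15 Cer1-low cells. Its lowest, median and highest values were 0, 67.3 and 601 FPKM in Cer1-high cells, against 0, 0.378 and 503 FPKM in Cer1-low cells, a difference of 2.29. The values of the sides overlapped over nearly their whole range. Cldn6, a tight junction claudin, had a difference of 1.75, Krt8, the partner keratin of Krt18, had 1.43, Epcam, an epithelial adhesion molecule, had 1.37 and Cdh1, which encodes E-cadherin, had 1.10. F11r, a junctional adhesion molecule, had -0.25.

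**Figure D2:**
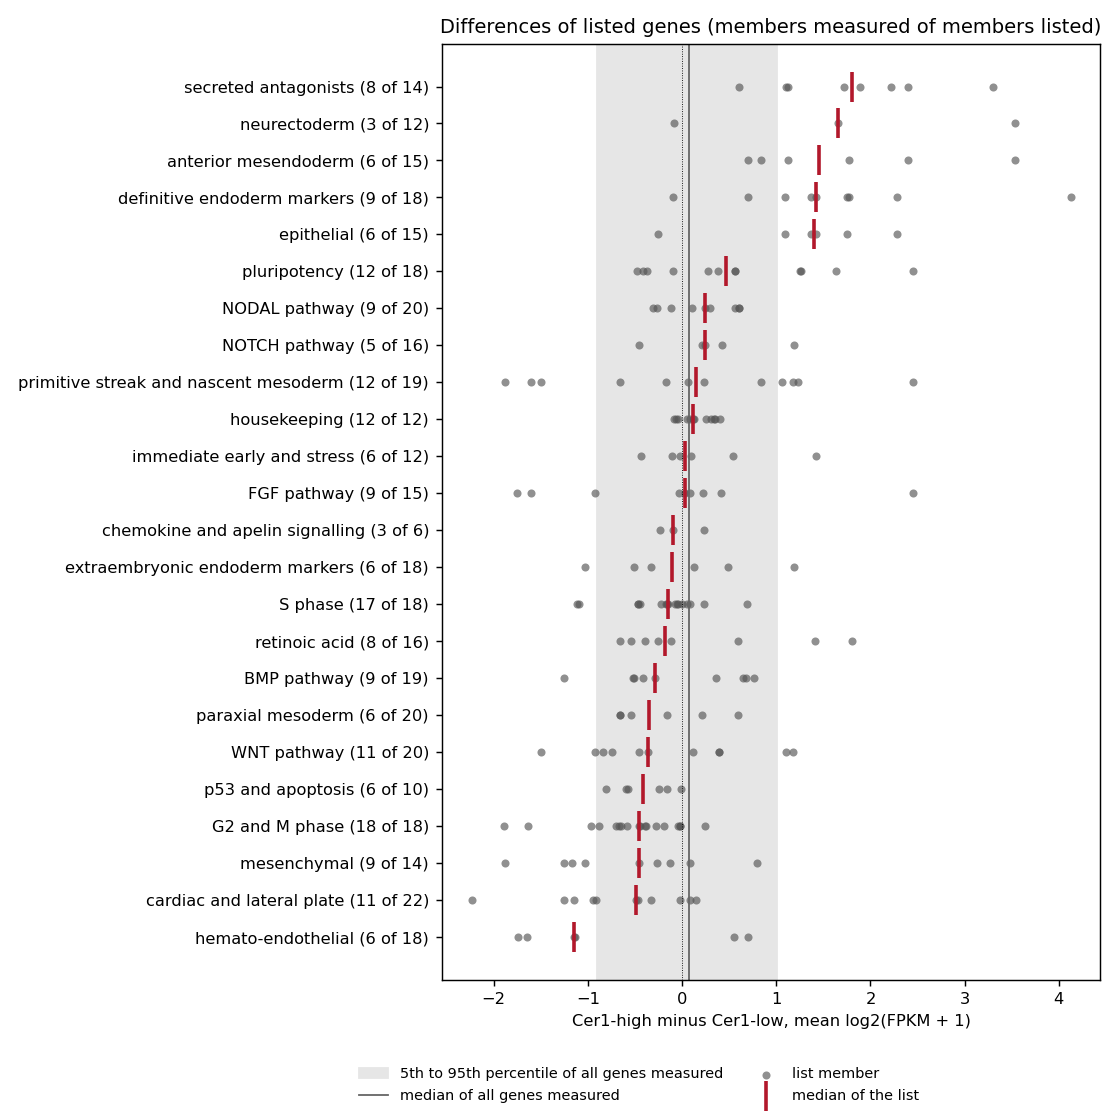
Difference of each measured member (grey points) and median of each gene list (red bars) in mean log2(FPKM + 1), Cer1-high minus Cer1-low, with the number of members measured of members listed; the grey band runs from the 5th to the 95th percentile of all 6235 genes (-0.90 to 1.01). The medians of secreted antagonists (1.81), neurectoderm (1.66, 3 members measured), anterior mesendoderm (1.45), definitive endoderm markers (1.43) and epithelial genes (1.40) lay to the right of the band. The hemato-endothelial median (-1.14) lay to its left. The lists to the right of the band share members with each other, so their medians are not separate results.

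The Cer1-high cells were not uniform. Foxa2 was detected in 8 of them and in none of the other 7, and the following counts describe these cells after the values had been seen, without a test. All 8 cells with Foxa2 also detected Krt18, T, Fgf5, Calca, Mixl1 and Pou5f1. Of the 7 cells without Foxa2, Krt18 was detected in 4, T, Fgf5 and Mixl1 in 2 each, and Calca and Pou5f1 in 1 each. Cdh1 and Cldn6 were each detected in 7 cells with Foxa2 and in 0 cells without it. In number of epithelial list members detected, the cells with Foxa2 ranged from 6 to 10 and those without from 0 to 3. The medians were 8.5 and 1, beside 4.5 and 2 in Cer1-low cells with and without Foxa2. For the definitive endoderm list, which holds Foxa2 itself, the medians were 8.5 and 3, beside 5.5 and 4 in Cer1-low cells. The Cer1-high cells without Foxa2 thus detected no more of either list, by median, than Cer1-low cells without it.

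Several mesodermal genes had the opposite counts within the Cer1-high cells. Mesp1 was detected in 6 of the 7 cells without Foxa2, against 3 of the 8 with it, and Pdgfra, a receptor tyrosine kinase of early mesoderm, in 6 against 2. Foxc2, a forkhead factor of paraxial and cardiac mesoderm, was detected in 6 of the 7 and in 0 of the 8, and Aldh1a2, which makes retinoic acid, in 5 against 1. Paraxial mesoderm list members detected ranged from 5 to 10 in cells without Foxa2 and from 0 to 6 in those with it. The antagonists, Trh and Otx2 were detected on both sides of this division. Sfrp1 and Trh were detected in all cells of both kinds, Otx2 in 6 of 7 without and in all 8 with Foxa2, Dkk1 in 5 of 7 and 7 of 8, and Shisa2 in 6 of 7 and 5 of 8. Secreted antagonist list members detected ranged from 5 to 10 in cells without Foxa2 and from 4 to 9 in those with it. Cer1 was lower in cells without Foxa2, with a median of 28.9 FPKM (13.6 to 491 FPKM), against 339 FPKM (45.2 to 1435 FPKM) in those with it. Label numbers up to 48 held 2 of the 7 cells without Foxa2 and 4 of the 8 with it. Among the 31 Cer1-low cells 4 detected Foxa2, and of these 3 detected Krt18, 2 T, 1 Calca and 0 Dkk1.

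**Figure D3:**
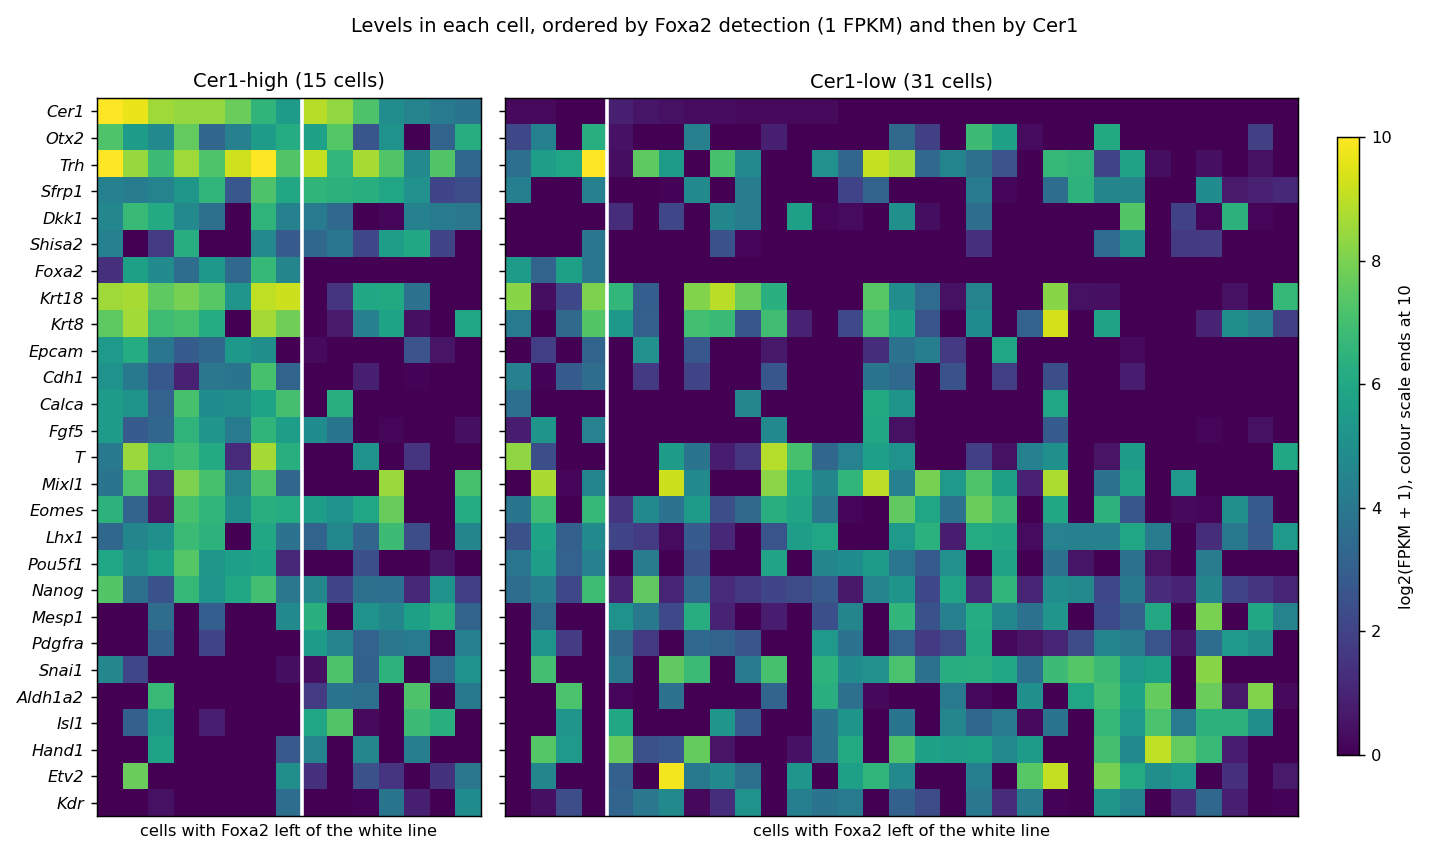
Level of 27 genes (rows) in each cell (columns) as log2(FPKM + 1), with Cer1-high cells left and Cer1-low cells right; within a side, cells with Foxa2 at 1 FPKM or more stand left of the white line, and cells are ordered by Cer1. The 8 Cer1-high cells with Foxa2 hold Krt18, Calca, Fgf5 and T, the other 7 mostly hold Mesp1 and Pdgfra, and Sfrp1 and Trh run through both.

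Other genes with large positive differences had varied roles. Pfn2, an actin-binding profilin, was detected in 14 Cer1-high and 16 Cer1-low cells, at 0, 42.2 and 118 FPKM as lowest, median and highest value in Cer1-high cells and 0, 1.01 and 37.7 FPKM in Cer1-low cells. Its difference was 3.32, and no Cer1-low cell exceeded the Cer1-high median. The ligand gene Fgf5, known from epiblast and early streak, was detected in 10 Cer1-high and 5 Cer1-low cells (difference 2.46), and Calca, the precursor of calcitonin and CGRP, in 9 Cer1-high and 5 Cer1-low cells (2.50). Cthrc1, a secreted glycoprotein gene, had 2.30, Smo, the transducer of hedgehog signals, 2.05, and Cd9, a tetraspanin, 2.13. Tnfrsf12a, the receptor of TWEAK, was detected in 6 Cer1-high cells up to 77.04 FPKM and in 1 Cer1-low cell at 11.9 FPKM (2.05). The remaining genes at 2 or more were Samd3 (2.56), Cluap1 (2.51), Nit1 (2.37), 5730469M10Rik (2.29), Car4 (2.18), Snx10 (2.13), D0H4S114 (2.07), Vamp8 (2.06), Emb (2.05), Tmed4 (2.05) and Pias1 (2.04). Their functions, which include a carbonic anhydrase for Car4, a vesicle SNARE for Vamp8 and a SUMO ligase for Pias1, form no listed group. Just below 2 stood Wars, a tryptophan tRNA ligase gene, detected in 14 Cer1-high and 25 Cer1-low cells.

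The largest negative difference was that of Pmp22, a membrane protein of peripheral myelin that mesenchymal cells also express (chromosome 11, 63128982 to 63159547, plus strand). It was detected in 6 of 15 Cer1-high cells (40%, interval 16.3% to 67.7%) and in 27 of 31 Cer1-low cells (87.1%, interval 70.2% to 96.4%). Its lowest, median and highest values were 0, 0 and 123 FPKM in Cer1-high cells, against 0, 46.8 and 487 FPKM in Cer1-low cells, a difference of -2.91. Slc38a4, an amino acid transporter, was detected in 8 Cer1-high and 30 Cer1-low cells (-2.41). Gadd45g, a growth arrest and DNA damage gene, was detected in 1 Cer1-high cell and in 16 Cer1-low cells (-2.38), and Rgs5, a regulator of G-protein signalling, in 5 Cer1-high and 22 Cer1-low cells (-2.34). The remaining genes at -2 or less were Rpl30 (-2.61), Sdr39u1 (-2.30), Hand1 (-2.23), Ppic (-2.03) and 2700099C18Rik (-2.01). Next in order, above -2, stood Gpx7 (-1.95), Ckb (-1.90), Kif11 (-1.89), Snai1 (-1.88), Asb8 (-1.85) and Scarb1 (-1.76). Of these, Gpx7, Asb8 and Scarb1 were detected in 6, 2 and 3 Cer1-high cells, against 22, 15 and 20 Cer1-low cells. Rpl30, a ribosomal protein gene with near-identical copies in the genome, was detected in 3 Cer1-high and 17 Cer1-low cells, and its value is uncertain because the counting of such copies is not given.

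Hand1, a basic helix-loop-helix factor of lateral plate and extraembryonic mesoderm (chromosome 11, 57828705 to 57832818, minus strand), was detected in 5 Cer1-high and 19 Cer1-low cells. Its highest value was 54.8 FPKM in Cer1-high and 523 FPKM in Cer1-low cells. Within label numbers up to 48 the difference was -3.89, and within higher numbers it was -0.99. The cardiac and lateral plate list had 11 measured members of 22 with a median of -0.49, and Hand1 was its only member past 2. Tbx3, a T-box factor, had -1.15 and Gata4, a zinc finger factor of heart and endoderm, -0.94. Isl1, a LIM homeobox factor of the second heart field, was detected in 6 Cer1-high and 18 Cer1-low cells, with medians of 0.193 FPKM in Cer1-high and 12.9 FPKM in Cer1-low cells and a difference of -0.49. Its highest value, 153 FPKM, stood in a Cer1-high cell. The heart field factor gene Nkx2-5 stood at 0 in every cell.

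Early hemato-endothelial regulators were lower in Cer1-high cells. Of 18 listed genes 6 were measured, 4 of them lower by 1 or more, against 3.7% of all genes. The list median was -1.14 (0.00 where the sides are compared by medians over cells). Etv2, the ETS factor that starts this programme, was detected in 7 Cer1-high and 18 Cer1-low cells, with a highest value of 207 FPKM in Cer1-high and 907 FPKM in Cer1-low cells (difference -1.65). Kdr, the VEGF receptor of its progenitors, was detected in 3 Cer1-high cells (20%, interval 4.33% to 48.1%) and in 18 Cer1-low cells (58.1%, interval 39.1% to 75.5%), a difference of -1.15. Gata2, a zinc finger factor of blood progenitors, was detected in 2 Cer1-high and 13 Cer1-low cells (-1.74). Lmo2, a partner of GATA and TAL1 factors, was detected in 0 Cer1-high and 10 Cer1-low cells (-1.14), and Tal1, which did not pass the level filter, in 0 Cer1-high and 7 Cer1-low cells. A count of 0 of 15 cells allows a share of up to 20% by the limit of 3 counts. Hhex (0.70) and Egfl7 (0.55), also on the list, were above 0, and the later endothelial genes Cdh5, Pecam1, Tie1, Erg and Sox18 did not reach 1 FPKM in any cell of either side.

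In the mesenchymal list, 7 of 9 measured members of 14 were below 0, 4 of them by 1 or more, with a median of -0.46. Over all genes 43.7% were below 0 and 3.7% lower by 1 or more, and listed members detected per cell had a median of 8 in Cer1-high and 7 in Cer1-low cells. Snai1, a zinc finger repressor of Cdh1 that acts as cells leave the streak, was detected in 7 Cer1-high and 21 Cer1-low cells, with medians of 0.339 FPKM in Cer1-high and 32.5 FPKM in Cer1-low cells (difference -1.88). Vim, the intermediate filament vimentin, had -1.26, fibronectin (Fn1) -1.17 and the matrix protein gene Sparc -1.03. Vim, Fn1 and Cdh2 were detected in nearly all cells of both sides (14 of 15 Cer1-high and 31 of 31 Cer1-low cells each). Within the Cer1-high cells, Snai1 was detected in 2 of 8 cells with Foxa2 and in 5 of 7 without.

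Mesp1 did not separate the sides. It was detected in 9 of 15 Cer1-high cells (60%, interval 32.3% to 83.7%) and in 20 of 31 Cer1-low cells (64.5%, interval 45.4% to 80.8%), with medians of 8.03 FPKM in Cer1-high and 7.29 FPKM in Cer1-low cells. The difference was -0.17 over all cells, -2.10 among label numbers up to 48 and 1.21 among higher numbers. Of the other streak and nascent mesoderm genes, Eomes, a T-box factor of mesoderm and endoderm formation, had 1.23, T (brachyury), the T-box gene of streak and axial mesoderm, had 1.06, and Mixl1, a homeobox gene of mesendoderm, had 0.06. T was detected in 10 Cer1-high and 16 Cer1-low cells, up to 396 FPKM in Cer1-high and 473 FPKM in Cer1-low cells. Wnt3, a ligand of the posterior streak, was detected in 5 Cer1-high and 20 Cer1-low cells (-1.49), Fgf3, an FGF ligand, in 1 Cer1-high cell and 13 Cer1-low cells (-1.60), and Evx1, a homeobox gene of the posterior streak below the level filter, in 0 Cer1-high and 12 Cer1-low cells. Pdgfra, common to early mesoderm, was detected in 8 Cer1-high and 21 Cer1-low cells (-0.33).

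Ligands, receptors and response genes were listed by pathway. In the NODAL list none of 9 measured members of 20 was past 1 in either direction, with a median of 0.25. Nodal itself was below the level filter and detected in 3 Cer1-high and 5 Cer1-low cells, and its co-receptor gene Tdgf1 had 0.56. In the BMP list the median was -0.29, against 0.31 among label numbers up to 48 alone. The ligand gene Bmp4 was detected in 5 Cer1-high and 20 Cer1-low cells (-1.25), while the BMP response genes Id1, Id2 and Id3 had 0.65, 0.68 and 0.77. Id3 was detected in all 15 Cer1-high cells, at 329 to 1661 FPKM, and in 30 of 31 Cer1-low cells, at up to 1781 FPKM. In the WNT list, with a median of -0.36, the response gene Sp5 (1.18) and the repressor Tcf7l1 (1.11) were higher, and the difference of Sp5 was 0.12 among label numbers up to 48 and 2.28 among higher numbers. The FGF list had a median of 0.03 and held both Fgf5 and the ligand gene Fgf15, which had -1.75 (3 Cer1-high and 13 Cer1-low cells).

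Cer1 is also a gene of anterior visceral endoderm, and 7 of 18 listed genes of extraembryonic endoderm did not reach 1 FPKM in any cell, while Apoa1 did in Cer1-high cells. Afp, Apoa4, Apoc2 and Hnf4a were listed at 0 in all cells, and Apob, Amn and Cubn did not reach 1 FPKM in any cell of either side. Ttr was detected in 0 Cer1-high cells and 1 Cer1-low cell at 1.43 FPKM, and Apoa1 in 3 Cer1-high and 0 Cer1-low cells, up to 16 FPKM. The 6 measured members of 18 had a median of -0.10, against 0.55 among label numbers above 48 alone, and members detected per cell ranged from 2 to 6 in Cer1-high and from 0 to 6 in Cer1-low cells. Dab2 (1.19) and Sparc (-1.03), which other cells also express, lay at its ends.

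Ranked by Spearman's rho with Cer1 over all 48 cells, the 10 genes most like it were Tnfrsf12a (0.55), Pdcd4 (0.51), Trnau1ap, Pias1, Tmed4, Sfrp1, Otx2, Emb, Ccnb1ip1 and Trh (0.46). These coefficients describe cells that share 1 table and 1 device, many of them at 0 for Cer1, and they carry no p-value. Pdcd4, a translation inhibitor, was detected in all cells of both sides, at 26.3, 49.95 and 101 FPKM as lowest, median and highest value in Cer1-high cells and 9.86, 26.7 and 65.3 FPKM in Cer1-low cells, a difference of 0.84. Within the 15 Cer1-high cells alone, rho was 0.47 for Trh, 0.36 for Otx2, 0.18 for Sfrp1 and -0.07 for Pfn2.

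The directions of the leading genes were the same in both ranges of label numbers, while their sizes varied. All 24 genes higher by 2 or more were higher within each range, and all 9 lower genes were lower within each. These genes were picked by their difference over the same cells. Their agreement in sign was thus largely set by the choice and supports nothing. Shisa2 had 1.08 among numbers up to 48 and 2.74 among higher numbers, Dkk1 had 2.87 and 1.71, and Crabp2, a carrier of retinoic acid, 3.15 and 0.82. Ckb, a creatine kinase at -1.90 over all cells, had -3.71 among numbers up to 48 and no difference to 2 decimals among higher numbers. Among the 8 measured antagonists, Frzb, Chrd and Lefty2 had -0.05, -0.26 and -0.12 among numbers up to 48. The part of the label number in these differences was not tested. The cells with few detected genes all lie among the higher numbers, so these measures overlap.

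**Figure D4:**
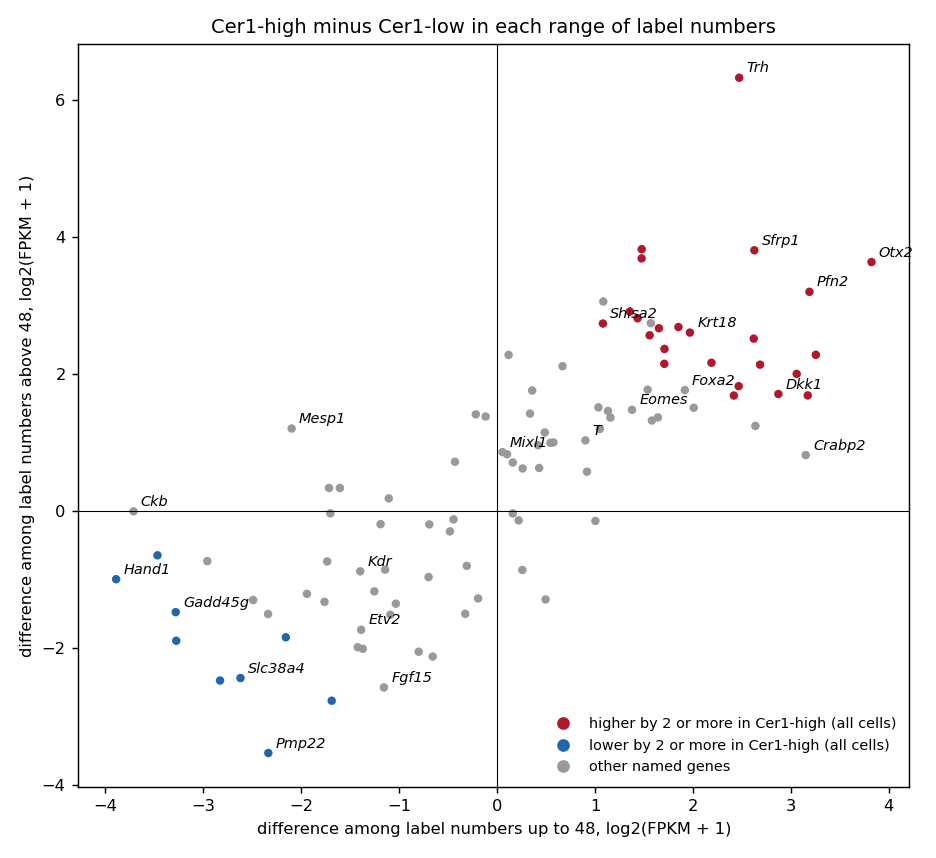
Difference of the named genes, Cer1-high minus Cer1-low in mean log2(FPKM + 1), among cells with label numbers up to 48 (x axis) and among cells with higher numbers (y axis); red and blue points are genes past 2 and -2 over all cells. Otx2 (3.82 and 3.64) and Pfn2 lie near the diagonal, Trh (2.47 and 6.33) above it, and Mesp1 (-2.10 and 1.21) in the upper left, where the sign turns.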

How the data were processed

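The values are FPKM in 1 deposited table with a column per cell. The file names no unit: it is inferred from Cufflinks 2.2.1.0, which the submitters' processing notes name without giving it a role, and from values that are not whole numbers. The same notes list mm10 as the build, with TopHat 0.7 and CASAVA 1.8.2 as further tools. The sources used here do not give the authors' annotation or filters. Its 23746 rows carried 23284 symbols, and rows of 240 repeated symbols were summed.

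The 783 symbols of short RNAs and Cer1 were set aside. Genes were measured at a mean of at least 5 FPKM with at least 5 cells at 1 FPKM, over both sides. A gene could thus enter through the cells of 1 side, so counts of direction within lists can partly reflect this filter. Differences are of the mean log2(FPKM + 1), with a pseudocount of 1 FPKM. Coordinates come from GENCODE M21, and promoters from RefSeq on GRCm38.p6. No cell was removed and no doublet caller was run. All 336 genes of 24 lists were found, 3 under older symbols, and 177 were measured.

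Genes to name were drawn from Cer1, Mesp1, the 25 largest and 15 most negative differences, up to 3 members per list and any past 2, the 10 highest correlations with Cer1, and Otx2, Isl1, Etv2, T, Kdr, Pdgfra, Hand1 and Aldh1a2. Other genes were named after their values were seen. The sides, lists and rules were chosen with earlier results of these data known. Scripts used Python 3.11.15, pandas 2.3.3 and SciPy 1.17.1. Only the difference of means was checked, on shuffled values of these cells with planted shifts, which it returns by arithmetic. Alternatives were the pseudocount, filters, scaling, Cer1 limits, few-gene cells (3 median absolute deviations below the median), label numbers, a covariate and medians. Leaving out each cell in turn and the share of cell combinations were added after seeing the data.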

Additional observations from a re-analysis of the deposited data

How the results depend on the processing

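Cells, not cultures, are the units, depth is unknown, and the count of genes past 2 depends on thresholds. With a pseudocount of 0.1 FPKM 142 genes were higher and 94 lower, with medians of log2 values 187 and 160, with Cer1 at 50 FPKM or more 54 and 27, among label numbers up to 48 74 and 58, above 48 131 and 37, at a difference of 1 323 and 231, and at 3 4 and 0. With Cer1 listed at 0, 14 genes were lower, and without few-gene cells 16. Leaving out each cell in turn gave 22 to 32 higher and 7 to 12 lower genes. The cause of these changes was not tested.

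List medians moved with a pseudocount of 0.1 FPKM (secreted antagonists 2.95, anterior mesendoderm 2.64, neurectoderm 2.76, hemato-endothelial -2.02), with Cer1 at 50 FPKM or more (BMP 0.29, anterior mesendoderm 2.06, neurectoderm 2.17), without few-gene cells (extraembryonic endoderm -0.46), among label numbers up to 48 (BMP 0.31, extraembryonic endoderm -0.79, mesenchymal -1.21), among higher numbers (NODAL 0.73, extraembryonic endoderm 0.55, NOTCH 0.83, retinoic acid 0.42) and with medians of log2 values (secreted antagonists 2.46, hemato-endothelial 0.00, neurectoderm 0.45).

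Of 1212 values of named genes under 12 alternatives, 8 moved by over 1 SD, all with medians of log2 values. The SD is that between cells within the sides, which is a wide limit. Alternatives that change only the gene filter leave these values as they are, so they could not move them. Changes within 1 SD could still turn a sign. Mesp1 ranged from -2.10 to 1.21 and kept its sign in 9 of 12 alternatives. No paired analysis was possible because the labels name 1 group of cells with no replicate numbers shared between groups.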

Other observations

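Genes of the pluripotent epiblast were partly higher in Cer1-high cells. Of 18 listed genes 12 were measured, 4 of them higher by 1 or more and none lower by 1, against 5.18% and 3.7% of all genes. The list median was 0.47. Nanog, a homeobox factor of pluripotent and early streak cells, was detected in 15 of 15 Cer1-high cells and 29 of 31 Cer1-low cells, with medians of 14.5 FPKM in Cer1-high and 3.48 FPKM in Cer1-low cells (difference 1.26). Dppa5a, an RNA-binding protein gene of stem cells, had 1.63 and the DNA methyltransferase gene Dnmt3b 1.25, while Utf1 (-0.48) and Zfp42 (-0.41), which mark undifferentiated stem cells, were below 0. The neurectoderm list had 3 measured members of 12, and its median of 1.66 was that of Zic5, a zinc finger factor detected in 7 Cer1-high and 3 Cer1-low cells. Pax6 and Sox1, which define neural tissue, were below the level filter and each detected in 1 Cer1-high cell, with Pax6 in 4 Cer1-low cells and Sox1 in 1.

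Of the retinoic acid genes, Crabp2 (1.8) and Rdh10 (1.41), which carry retinoic acid and make its precursor, were higher in Cer1-high cells, and Aldh1a2 had -0.66. The list median was -0.18. The NOTCH ligand gene Jag1 had 1.19, with a list median of 0.24, and the paraxial mesoderm and apelin and chemokine lists had medians of -0.35 and -0.10. Of 18 genes of G2 and M phase, 17 were below 0, against 43.7% of all genes, with a median of -0.45 that lies within the 5th to 95th percentile of all genes (-0.90 to 1.01). Kif11, a mitotic kinesin, was detected in 9 Cer1-high and 28 Cer1-low cells (-1.89), and within the Cer1-high cells in 2 of 8 with Foxa2 and in 7 of 7 without. Aurkb, a mitotic kinase, had -1.63. The S phase list had a median of -0.15, the immediate early and stress list 0.04, the p53 and apoptosis list -0.41 and the 12 housekeeping genes 0.12.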
